A study of Mus musculus with 32 samples.

Results

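The 7 genes for mu-class glutathione transferases, Gstm1 to Gstm7, were examined in RNA of the retinal pigment epithelium (RPE) of mice. They were chosen by their symbols, each symbol matched 1 row of the 34453 rows in the table of counts per gene, and all 7 are described. The mice were labelled rd1, a line on the FVB/N background that lacks a working rod phosphodiesterase subunit (Pde6b) and whose rods die early. In each of 16 mice both eyes were given AAV-Best1-GFP, and the Nrf2 eye was given AAV-Best1-Nrf2 as well. RPE was taken at P20 (7 mice) or P40 (9 mice), which gave 32 libraries. Nrf2 and control eyes with the same number at 1 age were taken as the eyes of 1 mouse. The Nrf2 vector carries the human cDNA (NFE2L2) under the human Best1 promoter, which is active in the RPE. Control eyes share the GFP vector and the injection but not Nrf2. By the methods, Nrf2 eyes also received a higher total dose of vector and a further capsid, which cannot be told apart from Nrf2. The methods also name CD1 pairs at P40 and fewer rd1 pairs than the labels do. The labels give rd1 for all libraries, and whether any P40 library is from a CD1 mouse could not be told.

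Glutathione transferases are enzymes that join glutathione, the main thiol of the cell, to reactive electrophiles such as the aldehydes formed when lipids oxidize. The mu class acts as cytosolic dimers, and its mouse genes stand side by side as copies of one another. Nrf2 is a transcription factor that is held in the cytoplasm and degraded through Keap1, and under oxidative stress binds with small Maf proteins to antioxidant response elements, where it activates genes for glutathione synthesis and conjugation. The RPE, a pigmented layer that takes up shed outer segments and is exposed to light and high oxygen, relies on such defences.

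The 7 genes lie within 149 kb of chromosome 3 (GRCm38 chr3:107895821-108044894). From the low coordinate they run in the order Gstm5, Gstm7, Gstm6, Gstm3, Gstm2, Gstm1 and Gstm4, with Gstm5 on the plus strand and the others on the minus strand. In the files the genes are ENSMUSG00000058135 (Gstm1), ENSMUSG00000040562 (Gstm2), ENSMUSG00000004038 (Gstm3), ENSMUSG00000027890 (Gstm4), ENSMUSG00000004032 (Gstm5), ENSMUSG00000068762 (Gstm6) and ENSMUSG00000004035 (Gstm7). Each has 8 exons, and each encodes 218 codons apart from Gstm5, which encodes 224. Because reads of near copies can be assigned to the wrong gene, their likeness matters for every value that follows. The window of 60 coding bases inside exon 4 that differs least among the members is shown first, 5′ to 3′, with capitals for bases that differ from Gstm1. All 7 members had the same base at 43 of its 60 positions.
Gstm1, chr3:108016541-108016600, minus strand: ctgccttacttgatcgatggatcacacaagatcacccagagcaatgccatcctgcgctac
Gstm2, chr3:107985269-107985328, minus strand: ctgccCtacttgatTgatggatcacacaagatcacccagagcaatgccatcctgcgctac
Gstm3, chr3:107967788-107967847, minus strand: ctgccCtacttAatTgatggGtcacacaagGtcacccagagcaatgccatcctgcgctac
Gstm4, chr3:108043542-108043601, minus strand: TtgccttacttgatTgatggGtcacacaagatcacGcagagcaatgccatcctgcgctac
Gstm5, chr3:107897288-107897347, plus strand: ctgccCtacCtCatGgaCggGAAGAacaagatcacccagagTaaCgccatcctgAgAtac
Gstm6, chr3:107942355-107942414, minus strand: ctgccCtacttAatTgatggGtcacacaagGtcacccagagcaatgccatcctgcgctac
Gstm7, chr3:107930495-107930554, minus strand: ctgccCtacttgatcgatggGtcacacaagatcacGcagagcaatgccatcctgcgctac

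In this window Gstm2 differed from Gstm1 at 2 bases and Gstm5 at 14, and Gstm3 and Gstm6 had the same sequence. The window of 60 coding bases that differs most lies in exon 8 near the end of the coding sequence, where 20 positions were shared by all 7 members. It is shown in the same way, since reads from it tell the members apart.
Gstm1, chr3:108012692-108012751, minus strand: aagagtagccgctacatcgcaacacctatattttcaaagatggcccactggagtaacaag
Gstm2, chr3:107982052-107982111, minus strand: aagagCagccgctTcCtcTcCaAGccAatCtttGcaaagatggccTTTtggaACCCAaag
Gstm3, chr3:107964210-107964269, minus strand: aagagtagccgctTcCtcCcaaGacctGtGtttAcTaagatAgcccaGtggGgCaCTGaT
Gstm4, chr3:108041239-108041298, minus strand: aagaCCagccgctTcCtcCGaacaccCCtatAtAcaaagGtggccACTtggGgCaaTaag
Gstm5, chr3:107898478-107898537, plus strand: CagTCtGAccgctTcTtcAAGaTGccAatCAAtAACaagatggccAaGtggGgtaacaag
Gstm6, chr3:107939230-107939289, minus strand: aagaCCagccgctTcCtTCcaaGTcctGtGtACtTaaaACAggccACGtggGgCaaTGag
Gstm7, chr3:107926894-107926953, minus strand: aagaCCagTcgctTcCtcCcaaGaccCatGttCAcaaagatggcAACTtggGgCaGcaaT

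Over the whole coding sequence Gstm3 was the closest to Gstm1, with 89.4% identical bases and a longest identical run of 112 bases. Gstm2 followed at 85.9%, and Gstm5 was the most distant from every other member, at 69.3% to 72.5%. Of all stretches of 31 bases in the annotated transcripts of a member, 71.2% occurred in no other gene for Gstm1, 87.8% for Gstm2, 62.3% for Gstm3, 96.7% for Gstm4, 88.9% for Gstm5, 90.4% for Gstm6 and 97.4% for Gstm7. Gstm1 and Gstm3 are thus the members with the largest parts that a short read cannot place. Gstm3 shared 15.2% of its stretches with Gstm1, 7.42% with Gstm6, 13.8% with the pseudogene Gstm2-ps1 and 24.7% with the pseudogene Gm8834. At a length of 75 bases Gstm4 and Gstm7 shared no stretch with any other gene, while Gstm3 still shared 21.6%.

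**Figure D1:**
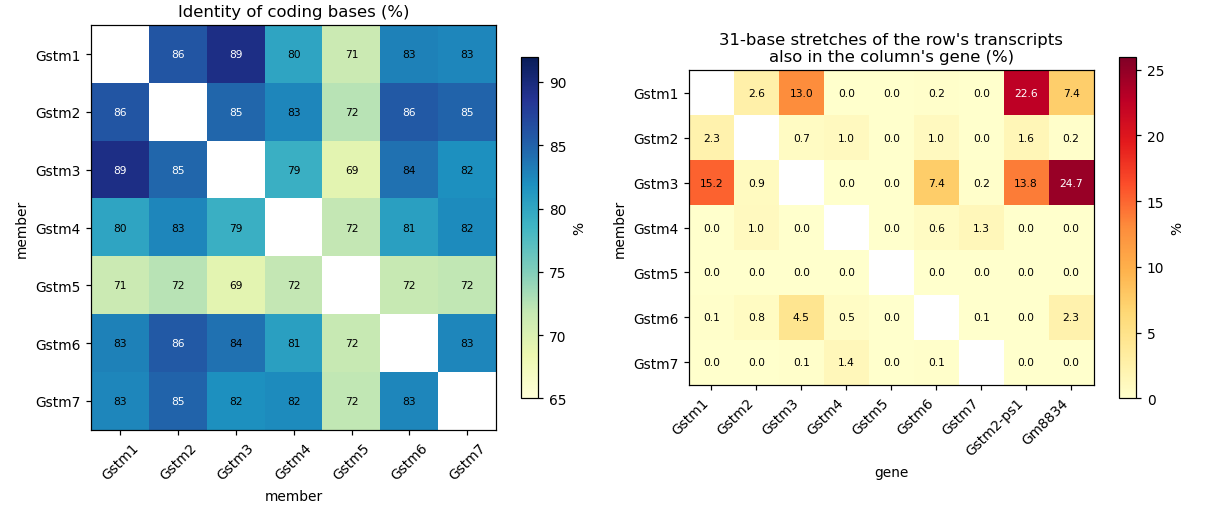
Likeness of the members' sequences. The left panel gives the percent of identical bases in the aligned coding sequences of each pair, and the right panel the percent of 31-base stretches of the member in the row that also occur in the gene in the column. Gstm1 and Gstm3 are the closest pair (89.4%), and Gstm5 shares no 31-base stretch with another member.

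Libraries held 16548332 to 50542797 counts, and all 7 members were detected. Levels in CPM (counts per 1000000) below are scaled by TMM, a normalization that sets library sizes so that most genes keep their level. NFE2L2, the transgene, was at 1082 to 9506 CPM in the Nrf2 eyes at P20 and at 3205 to 10438 CPM at P40. In control eyes it was at 0.924 to 1098 CPM at P20 and at 0 to 99.2 CPM at P40. The library labelled as the control eye of P20 mouse 3 (1098 CPM) and that labelled as the Nrf2 eye of P20 mouse 4 (1082 CPM) overlapped, and they were also the closest pair of all 32 libraries, with a mean squared difference 8.50 times the sampling noise against 51.2 for the next pair. Both lay between the other control eyes and the other Nrf2 eyes of P20 in transgene level, so results at P20 are also given without these mice. Within each of these mice the Nrf2 eye was the higher, at 7511 against 1098 CPM in mouse 3 and 1082 against 66.3 CPM in mouse 4. An exchange of the libraries at 1098 and 1082 CPM would leave both orders the same, so these orders do not bear on it. Whether the libraries were exchanged or mixed was not tested. All 10 RPE markers were detected in every group, with a summed level of 8797 to 65954 CPM. The 8 cone markers were also present, at 45.7 to 2272 CPM in control eyes and 26.4 to 503 CPM in Nrf2 eyes. In tissue RNA, fewer cells of a type and less RNA per cell cannot be told apart.

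In control eyes the family was mostly Gstm1 and Gstm5. Levels of different genes were compared per kilobase (kb) of transcript. At P20 the median was 67.4 CPM per kb for Gstm1, 61.1 for Gstm5, 18.9 for Gstm2, 4.61 for Gstm4, 3.19 for Gstm7, 0.196 for Gstm6 and 0.0214 for Gstm3. Gstm1 and Gstm5 were not in a fixed order, with Gstm1 higher in 4 of 7 control eyes at P20 and Gstm5 higher in 8 of 9 at P40. Gstm2 was below both at P40 and above the 4 remaining members in every control eye. Gstm4 was above Gstm7 in 7 of 7 control eyes at P20, and Gstm7 above Gstm4 in 6 of 9 at P40.

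In Nrf2 eyes the family became nearly all Gstm1. Its share of the family sum per kb was 25.01% to 86.0% (median 40.1%) in control eyes at P20 and 84.6% to 94.5% (median 93.6%) in Nrf2 eyes. At P40 it was 18.3% to 65.7% (median 34.6%) in control eyes and 84.4% to 95.6% (median 94.1%) in Nrf2 eyes. The groups overlapped at P20 through the control eye of mouse 3 alone and did not overlap at P40. Gstm5 went the other way in share, from a median of 37.7% to 3.88% at P20 and from 47.6% to 2.83% at P40, while 6 of 7 and 7 of 9 mice had more Gstm5 CPM in the Nrf2 eye.

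**Figure D2:**
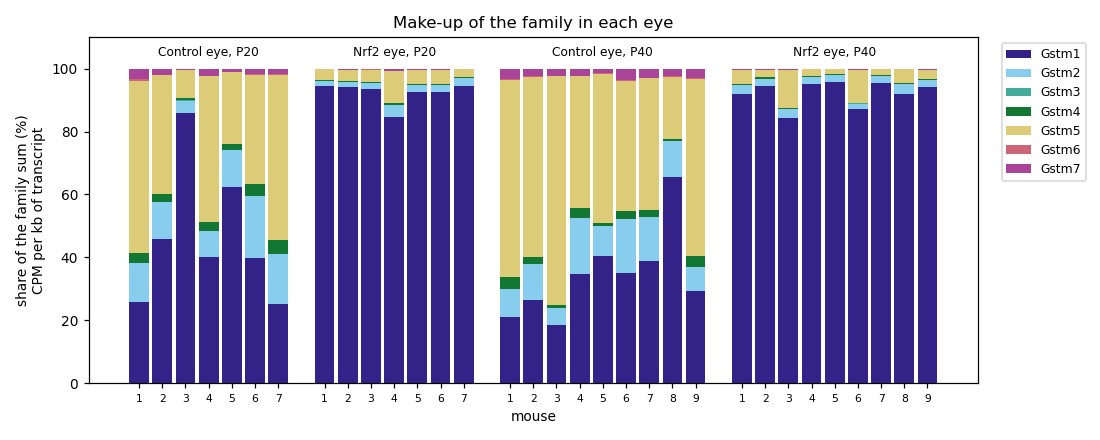
Share of each member in the summed CPM per kb of the family, 1 bar per eye, numbered by mouse within each group. Gstm1 makes up 84.4% or more of the sum in every Nrf2 eye and 86.0% or less in every control eye.

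The summed level of all 7 members does not depend on how reads are split among them. It was 121, 186 and 985 CPM (lowest, median and highest) in control eyes at P20 and 861, 5193 and 8396 CPM in Nrf2 eyes. At P40 it was 143, 232 and 396 CPM in control eyes and 3233, 6341 and 14551 CPM in Nrf2 eyes. The groups overlapped at P20, through mice 3 and 4, and not at P40. The Nrf2 eye was above the control eye of the same mouse in 7 of 7 mice at P20 and 9 of 9 at P40, with a median log2 ratio of 4.81 (SD 1.53) at P20 and 4.80 (SD 0.79) at P40. Before any scaling, the family took 0.278% to 1.36% of all counts in Nrf2 eyes at P40, against 0.0147% to 0.0346% in control eyes. Without Gstm1, the sum of the other 6 was still higher in the Nrf2 eye of every mouse, with a median log2 ratio of 1.56 (SD 0.70) at P20 and 1.41 (SD 0.63) at P40.

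Nrf2 eyes were compared with control eyes of the same mice to ask how expression of Nrf2 in the RPE changed each member. Of the 7 members, 6 rose at P20 and 5 at P40 in the quasi-likelihood test of edgeR, blocked by mouse and adjusted over all genes by Benjamini-Hochberg, and none fell. Of all genes tested, 2.93% rose and 0.485% fell at P20, and 3.33% rose and 1.23% fell at P40. The transgene itself had adjusted p = 0.0601 at P20 and 0.000672 at P40 in these edgeR fits. The median log2 fold change of the members was 1.89 at P20 and 2.04 at P40, against −0.04 and −0.03 for all genes tested. All 7 passed the filter on low counts at both ages. Nrf2 eyes lay above every control eye for 1 member at P20 (Gstm7) and for 5 at P40, against 1.26% and 1.17% of all genes tested.

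Gstm1, a major mu-class enzyme of mouse liver, had the largest fitted change, with Gstm3 next. At P20 it was at 37.1, 86.9 and 871 CPM (lowest, median and highest) in control eyes and at 751, 4938 and 8009 CPM in Nrf2 eyes. The groups overlapped only through mice 3 and 4, whose control and Nrf2 eyes were the highest and the lowest of their groups. At P40 it was at 36.4, 62.0 and 224 CPM in control eyes and at 3021, 5921 and 13974 CPM in Nrf2 eyes, and the groups did not overlap. Its change in log2 terms was 5.36 (SE 0.79, adjusted p = 0.0134) at P20 and 6.24 (SE 0.35, adjusted p = 4.37e-06) at P40, a 41.1-fold and a 75.6-fold rise. Without P20 mice 3 and 4 it was 6.31 at P20.

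Gstm2 had a smaller rise. It was at 14.4, 20.1 and 32.3 CPM in control eyes and 28.0, 76.7 and 171 CPM in Nrf2 eyes at P20, and at 12.5, 25.9 and 35.5 against 68.0, 126 and 264 CPM at P40. Only the Nrf2 eye of P20 mouse 4 fell within the range of the controls. In the edgeR fit its log2 fold change came to 1.95 (SE 0.27, adjusted p = 0.0110) at P20 and 2.58 (SE 0.20, adjusted p = 2.02e-05) at P40.

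Gstm3 was near the limit of detection in control eyes. Its counts were 0 to 13 at P20, with 6 of 7 control eyes at 3 or fewer, and 0 to 3 at P40. In Nrf2 eyes there were 6 to 100 counts at P20 and 19 to 125 at P40, and at P40 the lowest Nrf2 eye was above the highest control eye. Pooled over eyes and set against library size, the ratio was 17.7 at P20 (95% counting interval 11.1 to 29.8, from 19 counts in control eyes) and 69.0 at P40 (34.8 to 161, from 8 counts), intervals that cover counting error only. Of the 19 counts, 13 came from the control eye of P20 mouse 3, and without that eye the ratio at P20 was 48.3 (21.9 to 133), from 6 counts. The edgeR test gave adjusted p = 0.0267 and 0.000297, and the fitted fold change of a gene this low depends on the prior count.

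Gstm4 was at 6.29, 7.87 and 8.98 CPM in control eyes and at 8.46, 26.1 and 46.8 CPM in Nrf2 eyes at P20. At P40 it was at 2.30, 7.47 and 10.1 CPM against 12.4, 25.7 and 52.3 CPM. The groups overlapped at P20 and not at P40, and P20 mouse 4 had nearly equal eyes, with a difference of 0.10 in log2 CPM. Between eyes it changed by 1.63 in log2 terms (SE 0.27, adjusted p = 0.0186) at P20 and 2.04 (SE 0.30, adjusted p = 0.00162) at P40. Gstm4 shares no stretch of 50 bases with another gene.

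Gstm7 was the member whose groups were apart at both ages. It was at 2.33, 4.39 and 5.90 CPM in control eyes and 6.84, 15.2 and 22.03 CPM in Nrf2 eyes at P20, and at 4.58, 7.40 and 9.04 against 14.8, 20.1 and 29.8 CPM at P40. The lowest Nrf2 eye was above the highest control eye at P20 and at P40. The fitted change was 1.89 in log2 (SE 0.28, adjusted p = 0.0132) at P20 and 1.46 (SE 0.20, adjusted p = 0.000934) at P40, and 97.4% of its 31-base stretches occur in no other gene.

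Gstm6 was at 0.110 to 0.683 CPM in control eyes and 0.301 to 1.88 CPM in Nrf2 eyes at P20, and at 0.0482 to 0.594 against 0.576 to 2.14 CPM at P40. The groups overlapped at both ages. The Nrf2 eye was higher in 6 of 7 mice and in 9 of 9, but the test was not passed at P20 (a fitted change of 1.59 in log2, SE 0.53, adjusted p = 0.161) or at P40 (1.83, SE 0.49, adjusted p = 0.0625). DESeq2 and limma voom called it at both ages, and at P40 so did a fit over all 32 libraries and a fit without the block. These make up 2 of 7 other settings at P20 and 4 of 6 at P40. With 1 mouse left out it was called in 0 of 7 fits at P20 and 0 of 9 at P40.

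Gstm5, the most distant member, was called at P20 but not at P40. It was at 34.9, 57.7 and 73.9 CPM in control eyes and 65.7, 138 and 202 CPM in Nrf2 eyes at P20 (a fitted change of 1.30 in log2 terms, SE 0.22, adjusted p = 0.0203). At P40 it was at 49.6, 81.7 and 180.5 CPM against 103, 154 and 371 CPM (1.01, SE 0.31, adjusted p = 0.115). The groups overlapped at both ages, and at P40 2 of 9 mice had slightly less in the Nrf2 eye while mouse 6 differed by 2.65 in log2 CPM. DESeq2, limma voom and a single fit over all 32 libraries called it at P40.

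**Figure D3:**
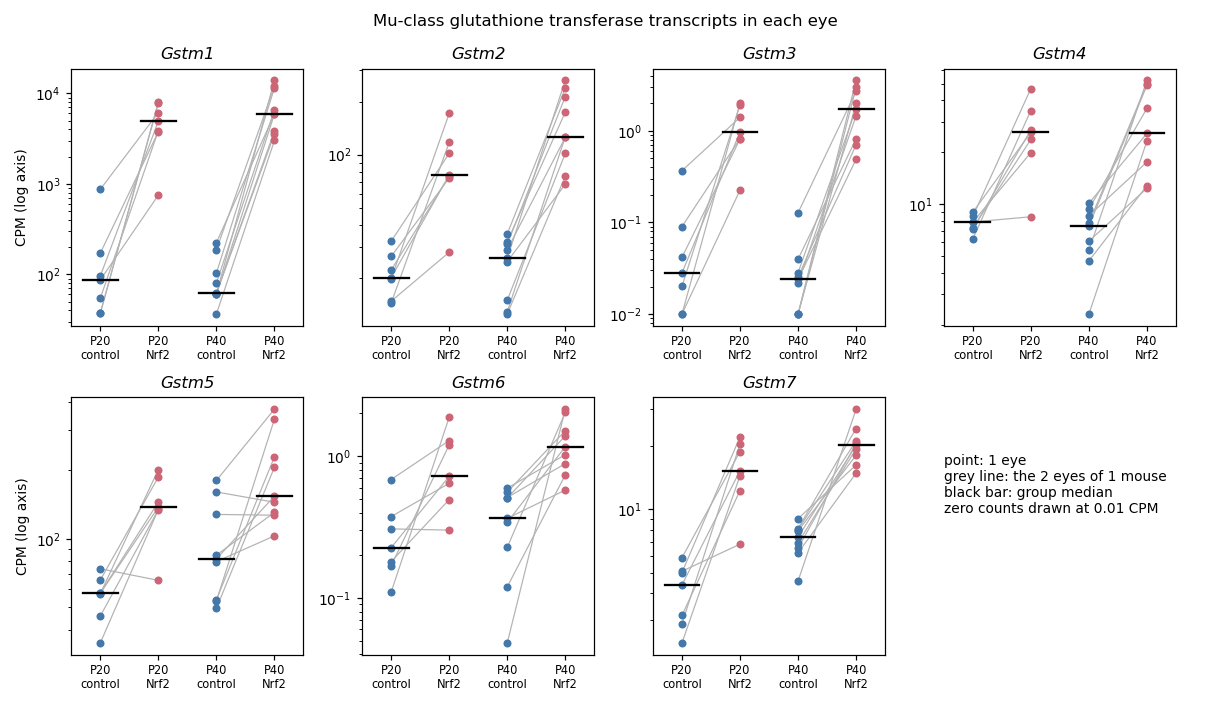
CPM of each member in each eye on log axes, with grey lines joining the eyes of a mouse, black bars for group medians and zero counts drawn at 0.01 CPM. For Gstm7 the Nrf2 eyes lie above all control eyes of the same age at both ages, for Gstm1 this holds at P40, and the lines of Gstm5 cross.

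How the calls depended on single mice differed between the ages. At P40 the same 5 members were called whichever mouse was left out. At P20, Gstm1 and Gstm2 were called without any 1 mouse, and the other calls were lost in some of these fits, with 2 members called without mouse 1 or mouse 7, 3 without mouse 3, 5 or 6, 5 without mouse 2 and 6 without mouse 4. Without both mouse 3 and mouse 4 the same 6 members were called as with all mice.

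The sizes of the Nrf2 effect were compared between members within each mouse, as log2 CPM (prior count 2), by exact two-sided permutation tests (sign flips over mice) adjusted over the 21 pairs of members at an age. The smallest p possible is 0.0156 for 7 mice and 0.00391 for 9. Of the 21 pairs, 12 differed at P20 and 13 at P40. Gstm1 exceeded Gstm2 by 3.40 (SE 0.51) in log2 terms at P20 and 3.67 (SE 0.25) at P40, and exceeded Gstm4, Gstm5, Gstm6 and Gstm7 by 3.48 to 4.07 at P20 and 4.20 to 5.22 at P40, in every mouse. Each of these exact tests gave adjusted p = 0.0273 at P20 and 0.00820 at P40. Gstm1 exceeded Gstm3 by 2.07 (SE 0.42) at P20 and 2.00 (SE 0.38) at P40, but a prior count lowers the difference of a gene as scarce as Gstm3. With a prior count of 0.5 this gap was 1.05 (SE 0.50, exact adjusted p = 0.164) and 0.77 (SE 0.54, exact adjusted p = 0.227), so a difference between Gstm1 and Gstm3 was not established. Without P20 mice 3 and 4 the gaps at P20 were wider, at 4.09 (SE 0.32) for Gstm2, 4.38 to 4.77 for Gstm4, Gstm5 and Gstm6, 4.10 for Gstm7 and 2.53 for Gstm3, in 5 of 5 mice.

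Gstm2, Gstm4, Gstm5, Gstm6 and Gstm7 differed less from one another. At P20, Gstm7 exceeded Gstm5 by 0.59 (SE 0.16) in 7 of 7 mice (exact adjusted p = 0.0273), and the difference between Gstm2 and Gstm7 was 0.08 (SE 0.22, range −0.83 to 0.90). At P40, Gstm2 exceeded Gstm7 by 1.12 (SE 0.19) in 8 of 9 mice (exact adjusted p = 0.0137) and Gstm5 by 1.55 (SE 0.42) in 8 of 9 (exact adjusted p = 0.0189). Between Gstm4 and Gstm6 the difference was 0.18 (SE 0.39) at P20 and 0.32 (SE 0.55) at P40, smaller than its error.

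**Figure D4:**
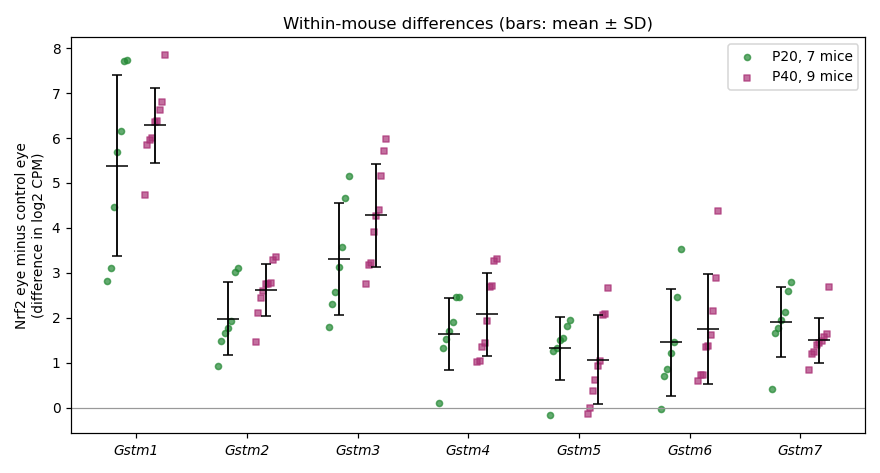
Nrf2 eye minus control eye in log2 CPM (prior count 2) for each member, 1 point per mouse, with black bars for mean ± SD over 7 mice at P20 and 9 at P40. Gstm1 stands highest with means of 5.38 and 6.28, and Gstm5 at P40 spreads from −0.15 to 2.65.

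The comparison of P40 with P20 asked whether members changed between the ages under the same treatment, in different mice. All P20 labels begin with M and all P40 labels with A, a difference whose meaning the labels do not give. Age cannot be told apart from this difference or, if any P40 libraries are from CD1 mice, from strain. In control eyes 1 of the 6 members tested rose and none fell, while 8.34% of all genes tested rose and 6.42% fell. Gstm7 rose by 0.85 (SE 0.23) on the log2 scale (adjusted p = 0.0300), from 2.33 to 5.90 CPM at P20 to 4.58 to 9.04 CPM at P40, ranges that overlap. Gstm5 had a difference of similar size (0.83, SE 0.29, adjusted p = 0.0591). Gstm1 differed by −0.92 (SE 0.61, adjusted p = 0.289), and without the control eye of P20 mouse 3 this value changed sign to 0.31. The Gstm7 call was lost without P20 mice 3 and 4 (1.04, adjusted p = 0.0548), and without control eyes 1, 2, 5 or 7 of P20 or 3 or 5 of P40. Gstm3 was not tested in control eyes because its counts were too low.

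In Nrf2 eyes no member of the 7 was called between the ages by edgeR, with 1 at an unadjusted p under 0.05 and 0.502% of all genes tested called. DESeq2 called none and limma voom called Gstm2. The log2 differences ran from 0.23 (Gstm4, SE 0.36) to 0.76 (Gstm2, SE 0.35, adjusted p = 0.177). How far the effect of Nrf2 differed between P40 and P20 was called for none of the 7 by edgeR, DESeq2 or limma voom, and none had an unadjusted p under 0.05 in edgeR, with 0.00557% of all genes tested called. This difference was 0.64 (SE 0.33) for Gstm2 and −0.43 (SE 0.33) for Gstm7. That Gstm5 was called at P20 and not at P40 is therefore not shown to be a difference between the ages (−0.28, SE 0.42).

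Whether members followed the transgene was examined among Nrf2 eyes of 1 age, over 14 relations. At P20 the log2 CPM of Gstm1 and of NFE2L2 had a Pearson r of 0.995 (exact permutation p = 0.000992, adjusted 0.00694) and a Spearman rho of 0.929 (exact permutation p = 0.00675, adjusted 0.0189) over 7 eyes. Without the 2 eyes farthest from the median of the transgene, r was 0.954. The other 6 members had r from 0.771 (Gstm6) to 0.980 (Gstm7), each with an adjusted exact permutation p under the threshold of 0.05, while the rho of Gstm3 (0.821, exact adjusted p = 0.0796) and Gstm6 (0.750, exact adjusted p = 0.103) did not pass. The same relation was not computed for all genes, so it is not known whether the members followed the transgene more than other genes did. Mouse 4 stood apart at the low end, and over the 6 eyes without it no relation passed after adjustment (Gstm1 r = 0.963, exact adjusted p = 0.0583). Over these 6 eyes r ran from 0.560 (Gstm6) to 0.982 (Gstm7). At P40, over 9 eyes, r was 0.522 for Gstm1 (exact permutation p = 0.150, adjusted 0.210), and only Gstm7 passed (r = 0.781, exact permutation p = 0.0124, adjusted 0.0248, rho = 0.683, exact p = 0.0503, adjusted 0.0881). Without the 2 farthest eyes the r of Gstm7 was 0.580.

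Reads shared between copies could touch the counts of Gstm3, the member with the smallest part of its own. In Nrf2 eyes, which held 19994 to 489967 counts of Gstm1, the Gstm3 counts were 0.0166% to 0.0300% of the Gstm1 counts at P20 and 0.0162% to 0.0338% at P40. At P20 the coefficient of variation of this ratio was 0.175 for Gstm3, against 0.371 (Gstm2) to 0.618 (Gstm5) for the other members. At P40 it was 0.208 for Gstm3, 0.203 for both Gstm2 and Gstm4, 0.400 for Gstm7, 0.706 for Gstm6 and 0.888 for Gstm5. Counts of the pseudogenes Gstm2-ps1 and Gm8834, singled out after their values were seen, were a small part of the Gstm1 counts too. Gstm2-ps1 had 54.1% of its 31-base stretches in common with Gstm1 and was at 0.0350% to 0.0608% of its counts at P20 and 0.0267% to 0.0683% at P40, and Gm8834 was at 0.00500% to 0.0212% and 0.00849% to 0.0225%. Gstm2-ps1 rose with a log2 fold change of 4.83 at P20 (adjusted p = 0.0382) and 6.99 at P40 (adjusted p = 6.68e-05). Whether the counts of Gstm3 and the pseudogenes came from their own transcripts or from reads of Gstm1 was not tested.

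The rises were also set beside that of Gstm1. The within-mouse increase of Gstm2 in CPM was 1.17% to 1.99% of that of Gstm1 at P20 and 1.15% to 2.49% at P40. Of the stretches of Gstm1, 2.60% at 31 bases, 0.724% at 50 bases and 0% at 75 bases were also present in Gstm2. Such a share is not a rate of misassigned reads. For Gstm7 the increase was 0.218% to 0.317% and 0.107% to 0.329%, and for Gstm4 0.0862% to 0.518% and 0.166% to 0.409%. Gstm5 spread widely, from −1.23% to 2.61% and from −0.135% to 7.48%. Gstm6 had the lowest medians, 0.00772% and 0.0150%, against 0.0244% and 0.0246% for Gstm3. Gstm1 shared no 31-base stretch with Gstm4, Gstm5 or Gstm7. How reads were split among the members was not tested.

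Gstm5 differed from the other members in what it moved with. After the means of the 4 groups were subtracted, its log2 CPM correlated over the 32 libraries with the summed RPE markers (r = 0.881), whereas r was −0.267 to 0.250 for the other 6. Gstm5 also had r = 0.772 with the summed Müller glia markers, 0.535 with rod and 0.503 with melanocyte markers. With rod markers Gstm7 had 0.566, Gstm6 0.489 and Gstm4 0.460, and with Müller glia markers Gstm6 had 0.485 and Gstm7 0.413. With cone markers r was −0.525 for Gstm2, −0.403 for Gstm1, −0.361 for Gstm3 and 0.401 for Gstm5. These values are descriptions across libraries that share normalization and RNA makeup. Gstm5 was highest in the Nrf2 eyes of P40 mice 3 (371 CPM) and 6 (335 CPM), where the RPE markers summed to 65954 and 49909.5 CPM against a median of 15001 in that group. Per summed RPE marker, a scaling added after this likeness was seen, Gstm5 was higher in the Nrf2 eye of 7 of 7 mice at P20 and 9 of 9 at P40, with a median log2 difference of 0.89 (SD 0.41) and 1.17 (SD 0.34). The same scaling lowered the SD of Gstm5 at P40 from 0.99 and raised that of Gstm1 from 0.84 to 1.60. The RPE markers themselves had a within-mouse log2 ratio of −1.80 to 1.75 at P40, and 4 of 10 fell by the test at that age. Their part in the Gstm5 result was not tested.

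**Figure D5:**
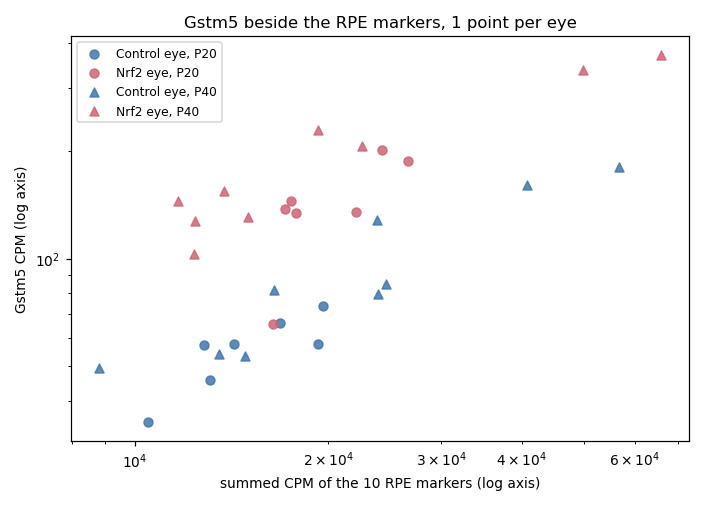
Gstm5 CPM against the summed CPM of the 10 RPE markers on log axes, 1 point per eye. Blue marks are control eyes, red marks Nrf2 eyes, circles P20 and triangles P40. Gstm5 rises with the markers in all 4 groups, and per marker all Nrf2 eyes but that of P20 mouse 4 lie at 5.63 to 12.4 reads per 1000 marker reads against 3.00 to 5.64 in control eyes.

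The genes outside the family whose pattern was most like that of a member, by the same residual correlation among 11794 genes, differed from member to member. For Gstm1 they were Cbr3, a carbonyl reductase (r = 0.877), Fbxo2 (0.861) and Prdx6, a peroxiredoxin (0.853). For Gstm2 they were Esd (0.906), Prdx6 (0.885) and Pthlh (0.879), and for Gstm4 Pgrmc1 (0.915), Gbe1 (0.909) and Sqstm1, a receptor for selective autophagy (0.897). For Gstm5 they were Lman1, a cargo receptor of the early secretory pathway (0.963), Nmb (0.952) and Cystm1 (0.935), and for Gstm7 Uchl1 (0.810), Fbxo2 (0.808) and Praf2 (0.808). Between members r was 0.795 for Gstm1 with Gstm2 and 0.690 for Gstm1 with Gstm7, but 0.0619 for Gstm4 with Gstm5. Gstm3 and Gstm6 were too low for this measure.

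Other parts of the glutathione pathway were read from the same fits. Of 17 other glutathione transferases tested, 5 rose at P20 and 6 at P40, and none fell. The largest changes were those of Gsta2, an alpha-class enzyme (log2 fold change 3.82, adjusted p = 0.00921 at P20, and 3.77, adjusted p = 1.09e-05 at P40), of the pi-class Gstp2 at P20 (3.68, adjusted p = 0.0192) and of Gstp1 at P40 (3.51, adjusted p = 2.28e-05), and the pi-class genes are close copies too. Of 16 genes of glutathione synthesis, turnover and reduction, 8 rose at each age, among them Gclc and Gclm, the subunits of the rate-limiting ligase (log2 fold change 4.16 and 2.99 at P20, 4.69 and 3.41 at P40). Of 13 tested genes that export or break down conjugates, 3 rose at each age, the exporters Abcc1, Abcc3 and Abcc4. Mouse Nfe2l2 itself was at a median of 72.4 and 84.6 CPM in control and Nrf2 eyes at P20 and 87.9 and 92.8 CPM at P40, and was not called between eyes. Of 15 known Nrf2 targets, 14 rose at each age. Of the 8 cone markers 2 fell at P20 and 7 at P40, and of the 8 macrophage markers none passed at P20 and 5 rose at P40. Of the rod markers Rom1 rose at both ages and Pde6g and Sag fell at P40, and the fibroblast marker Col3a1 rose at P40. These are changes in markers of other cell types whose part in the members' values was not tested.

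The neighbours of the cluster were read from the same fits. Of 21 other genes and pseudogenes within 200 kb of the cluster, 11 were tested, and at each age 1 rose and 1 fell. Csf1, a growth factor of macrophages, rose (log2 fold change 1.45, adjusted p = 0.0136 at P20, and 1.68, adjusted p = 0.000841 at P40), and Gnat2, the transducin of cones, fell (log2 fold change −1.69, adjusted p = 0.0297, and −2.22, adjusted p = 0.00385). The other 9 did not pass at either age.

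The promoters were searched for the core of the antioxidant response element, TGACNNNGC, on both strands, in RefSeq windows of GRCm38.p6 from 250 bases before to 50 after a gene's start. It was found in 2 of 12 windows of the members, 1 of Gstm5 and 1 of Gstm7, and in 12.4% of all 32851 windows. Both matches are shown with their surroundings, 5′ to 3′ along the gene, with the motif in capitals, because they are the only ones in the family.
Gstm5, chr3:107895792-107895840, plus strand: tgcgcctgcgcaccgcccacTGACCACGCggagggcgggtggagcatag
Gstm7, chr3:107931715-107931763, minus strand: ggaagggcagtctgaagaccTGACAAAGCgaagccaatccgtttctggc

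The first base of the match lies 42 bases before the RefSeq start of Gstm5 and 129 bases before a RefSeq start of Gstm7. The GENCODE start of Gstm5 differs, and by it the match begins 9 bases before the gene. Another RefSeq start of Gstm7 is the same as its GENCODE start, and by that start the match begins 74 bases inside Gstm7. Gstm1 and Gstm3, the members with the largest rises, had no match in their windows. A match is only a match of letters, and elements farther away were not searched.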

How the data were processed

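RNA of the RPE was sequenced after amplification (Ultra Low v4 kit). The authors aligned and quantified the reads with bcbio-nextgen against mm10 (Ensembl release 91), and deposited estimated counts for each gene, as whole numbers after rounding, with no normalization. That these are Salmon's values is inferred, and the 2 sequencing runs are not assigned to libraries. Counts were tested with edgeR 4.0.16 (TMM, filterByExpr, quasi-likelihood, Benjamini-Hochberg over all genes, threshold 0.05), with the mouse as block between eyes and no block between ages. DESeq2 1.42.0, limma voom 3.58.1, RLE scaling, other count filters, fits with and without the block, and fits without single mice were alternatives. The methods pair the eyes of a mouse, and the labels number the eyes of each treatment without naming a mouse. That eyes with the same number at 1 age are from 1 mouse is inferred. Deviations from group means correlated at −0.581 to 0.754 (median 0.056) within the 16 mice, over 0.1 in 7. Members and lists were chosen with earlier results of these data known. Named genes were the members, the 2 called other glutathione transferases that changed most at each age, called neighbours within 200 kb and the 3 genes most like each member. Genes named beyond these were chosen after their values were seen. On simulated counts with 200 genes changed 4-fold, 72.5% were recovered in the P20 comparison of eyes and 77% in that at P40. The simulation held no differences between mice and no deviant eyes, so it does not give the recovery in the real libraries. Transcripts came from GENCODE M21 and promoters from RefSeq (GRCm38.p6). No per-sample column was left out.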

Additional observations from a re-analysis of the deposited data

Results flagged for a closer look

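In 48 sets of 4 to 10 values, 6 had 1 value far from the others by Dixon's criterion, which chance meets in about 1 of 20 sets. The library labelled as the control eye of P20 mouse 3 was high in 3 of them: Gstm1 was at 871 CPM against 37.1 to 171 in the other control eyes, Gstm3 at 0.367 CPM against 0 to 0.0902, and the family sum at 985 CPM against 121 to 255. Its transgene level was also high, at 1098 CPM. In P40 mouse 5 the control eye had 3 counts of Gstm3 (0.128 CPM), against 0 to 0.0398 CPM in the others. The within-mouse log2 difference of Gstm5 was −0.17 in P20 mouse 4 against 1.25 to 1.95 in the others, and the Nrf2 eye of that mouse had the lowest transgene level of all Nrf2 eyes, 1082 CPM. The within-mouse log2 difference of Gstm7 was 2.69 in P40 mouse 4 against 0.84 to 1.64 in the others. The part of the transgene level in these values was not tested.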

How the results depend on the processing

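At P20 the count of members called was 6 and ranged from 5 to 7 over the other settings (6 without the replicate block) and from 2 to 6 with 1 mouse left out. At P40 it was 5, ranged from 4 to 7 (6 without the replicate block) and stayed at 5 with any mouse left out. In control eyes between the ages it was 1, against 2 by DESeq2 or with at least 10 counts in every library, 0 with no filter, with the replicate block or without P20 mice 3 and 4, and 0 to 2 with 1 eye left out. In Nrf2 eyes it was 0, against 1 by limma voom and 0 with the replicate block. The same-numbered mice of the 2 ages share only a number, with correlations of −0.589 to 0.498. Gstm1 between the ages in control eyes turned from −0.92 to 0.33 without P20 mice 3 and 4 and ran from −1.18 to 0.31 with 1 eye left out. The change of the Nrf2 effect with age turned to −0.32 for Gstm6 by limma voom, and to −0.093 for Gstm1 and −0.088 for Gstm6 without P20 mice 3 and 4. The relations with the transgene at P20 that passed by Pearson r went from 7 to 0 without mouse 4, with r of 0.560 to 0.982 over the 6 remaining eyes. The cause of these changes was not tested. Over all genes, calls ranged from 348 to 2605 around 556 at P20, from 648 to 1380 around 762 at P40, from 158 to 4362 around 2483 in control eyes, from 3 to 2213 around 84 in Nrf2 eyes and from 1 to 12 around 1 for the difference, and with 1 mouse or eye left out from 111 to 1999, 521 to 997, 473 to 4273 and 21 to 190 in the first 4. Gstm3 was not tested between the ages in control eyes, where it had 0 to 13 counts.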
